A study of Mus musculus with 18 samples.

Results

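The genes described here make cholesterol and fatty acids, together with the regulators that switch these genes on and off. They were chosen as a list of 29 gene symbols. A gene was taken as measured where the array carried a probe set annotated with that symbol alone, and this held for 25 of the 29, each with 1 such probe set, out of 19505 genes tested. Acat2, Tm7sf2, Srebf1 and Scd2 had no such probe set and were not analysed here. The 25 fall into 6 genes of the early mevalonate steps, 10 of the steps between squalene and cholesterol, 5 that regulate sterol-responsive transcription or move sterol between membranes, and 4 of fatty acid synthesis.

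Their transcripts were measured on 18 Affymetrix Clariom S arrays of blood-forming stem and progenitor cells from C57Bl/6J mice, sorted as LSK cells (negative for lineage markers, positive for Sca-1 and Kit) and divided by the surface proteins Cd150 and Cd48. Adult bone marrow (BM, mice between 3 and 12 months old) and fetal liver (FL, stage E13.5) each gave long-term stem cells (LT-HSC), short-term stem cells (ST-HSC) and multipotent progenitors (MPP). That made 6 groups with 3 arrays apiece, called a, b and c in their titles. The labels do not tell whether these came from different animals or pools, so each p-value measures the spread between samples, which may be technical. Free-text descriptions of the arrays go against these labels: they mention transplanted marrow carrying guide RNAs, with sgEzh2 named on 4 of the FL arrays and sgLuc on the remaining 14. Titles, source names and stages were used to group the arrays.

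Cells build cholesterol from acetyl-CoA in a long chain of enzymes, and the same starting material is lengthened into fatty acids by acetyl-CoA carboxylase and fatty acid synthase. Transcription of both chains is driven by the SREBP factors, membrane proteins that the escort protein Scap carries to the Golgi for release when sterol is scarce. The Insig proteins hold Scap and SREBP back when sterol is plentiful, and Insig1 is itself a target that SREBP switches on. Dividing cells need both products for new membrane.

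Promoter windows show the sequence around the start of a gene. The windows of 4 members are shown, taken from the groups the results turn on: a mevalonate gene, both Insig genes, and fatty acid synthase. The windows come from RefSeq on the GRCm38.p6 build and cover the 250 bases before to the 50 after the start of a gene, read 5′ to 3′ on the strand of the gene. They lie at chr13:119690101-119690400 on the plus strand for Hmgcs1, chr5:28071162-28071461 on the plus strand for Insig1, chr1:121332540-121332839 on the minus strand for Insig2 (the first of 3 listed starts) and chr11:120824498-120824797 on the minus strand for Fasn. Capitals mark the NF-Y box, CCAAT or ATTGG on the other strand, and in Hmgcs1 also the match to a sterol regulatory element, TCACCCCAC.
Hmgcs1: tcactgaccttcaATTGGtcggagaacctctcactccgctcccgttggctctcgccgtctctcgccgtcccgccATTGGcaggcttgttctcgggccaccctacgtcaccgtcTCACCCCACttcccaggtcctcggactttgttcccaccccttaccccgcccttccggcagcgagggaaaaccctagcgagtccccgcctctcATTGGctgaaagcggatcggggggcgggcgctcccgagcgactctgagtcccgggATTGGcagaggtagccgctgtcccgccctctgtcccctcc
Insig1: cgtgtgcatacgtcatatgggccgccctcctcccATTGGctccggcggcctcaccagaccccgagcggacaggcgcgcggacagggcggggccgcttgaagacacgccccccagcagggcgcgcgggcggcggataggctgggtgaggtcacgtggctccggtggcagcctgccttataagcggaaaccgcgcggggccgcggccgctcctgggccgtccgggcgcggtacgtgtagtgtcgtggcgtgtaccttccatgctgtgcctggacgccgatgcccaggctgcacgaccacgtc
Insig2: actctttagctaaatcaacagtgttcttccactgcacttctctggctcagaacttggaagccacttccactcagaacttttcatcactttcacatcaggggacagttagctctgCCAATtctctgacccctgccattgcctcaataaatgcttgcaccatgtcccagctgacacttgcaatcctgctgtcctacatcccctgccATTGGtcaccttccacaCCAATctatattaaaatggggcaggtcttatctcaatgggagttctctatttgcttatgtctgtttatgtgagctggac
Fasn: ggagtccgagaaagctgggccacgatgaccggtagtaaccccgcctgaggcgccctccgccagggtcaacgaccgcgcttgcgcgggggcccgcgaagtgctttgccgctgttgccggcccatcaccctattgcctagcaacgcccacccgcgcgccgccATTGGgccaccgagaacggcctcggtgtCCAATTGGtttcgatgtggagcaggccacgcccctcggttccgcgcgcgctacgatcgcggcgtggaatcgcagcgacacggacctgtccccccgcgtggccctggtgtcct

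Of the 25 measured members, 20 had a window in the table. The sterol regulatory element, searched on both strands as TCACNCCAC, was in 1 of these 20, Hmgcs1, and in 1.436% of the 27025 genes with a window. The NF-Y box was in 18 of the 20, or 90%, against 41.06% of all genes; Scap and Acaca were the others. The GC box GGGCGG, the letters bound by Sp1, was in 17 of the 20, or 85%, against 38.2% of all genes. In Fasn 2 of its 3 NF-Y matches overlap on opposite strands. A match describes the letters of a window and is not a binding site. The absence of a match to these exact letters does not mean that no site lies in the window or further away.

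Median log2 signals of the arrays were 7.68 to 7.78, and the correlation over genes between arrays of 1 group was 0.960 to 0.994. The interquartile range of signals was 2.98 to 3.18 in 14 arrays and 2.61 to 2.71 in the other 4, named the narrow arrays below: BM LT-HSC c, BM ST-HSC b, BM ST-HSC c and FL LT-HSC b. The mean log2 signal of the 25 members was also lower in these 4 (8.76 to 8.96) than in the other 14 (9.04 to 9.36), so results are also given without them where a call or a median turned on it. Leaving them out keeps 1 BM ST-HSC array, which is then assumed to vary like the others. Of the sort markers, Slamf1, which encodes Cd150, was lower and Cd48 and Flt3 were higher in MPP than in LT-HSC of both sources, and Kit and Ptprc did not pass that comparison. Slamf1 was also higher in BM than in FL, by 0.48 ± 0.11 (SE), while Kit differed by -0.04 ± 0.07, and Ly6a, which encodes Sca-1, had no probe set of 1 symbol. Y-linked Kdm5d was at 4.07 to 4.88 in the 9 BM arrays and 6.64 to 8.09 in the 9 FL arrays, and Uty at 3.77 to 4.17 in BM and 6.92 to 7.77 in FL. This difference in Y-linked transcripts cannot be told apart from the source.

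The first comparison asked how adult marrow cells differ from fetal liver cells, averaged over the 3 populations. Most synthesis genes that changed were lower in BM: 13 of the 25 members fell, 1 rose (Insig1), and 11 did not pass limma's test at an adjusted p under 0.05. Over all 19505 genes, 15.9% were lower and 9.26% higher. The median difference of the 25 members, BM minus FL, was -0.28 on the log2 scale, against -0.01 for all genes. In bulk samples fewer cells of a type and less RNA per cell cannot be told apart. Without the 4 narrow arrays 5 members were lower and 3 higher, against 11.7% and 10.2% of all genes, and the median was -0.18. Leaving out single arrays gave 10 to 14 called members, against 4141 to 5943 of all 19505 genes. Of the 14, 10 stayed called without each array in turn.

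**Figure D1:**
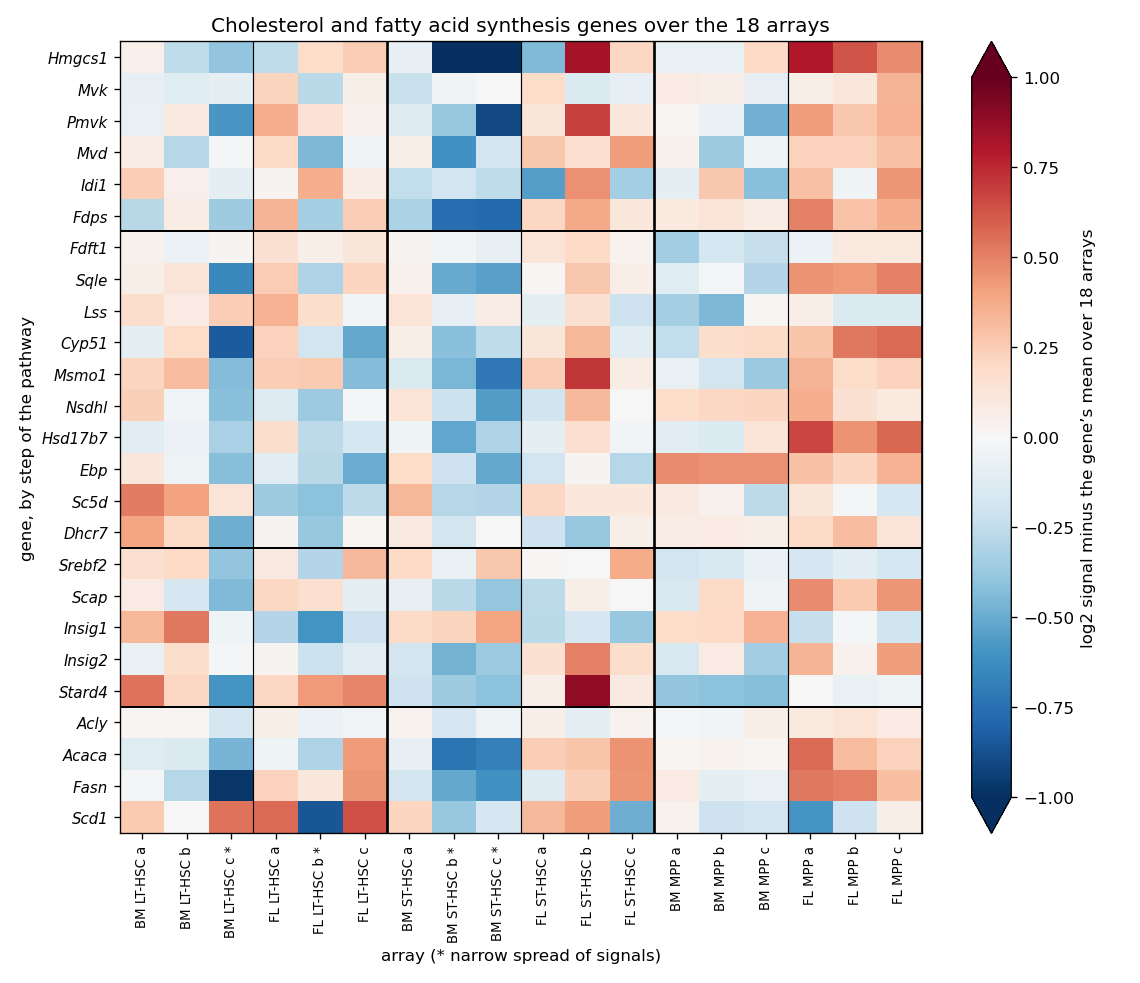
Log2 signal of each of the 25 genes (rows, by step of the pathway) in each of the 18 arrays (columns, BM left of FL within a population), as the difference from the mean of that gene. Blue is below and red above the mean, colours saturate at 1, and asterisks mark the 4 narrow arrays, whose columns hold most of the deep blue cells.

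The early mevalonate steps turn acetyl-CoA into the isoprenoid units of sterols. Of the 6 measured members 4 fell in BM, and the median difference was -0.38; without the 4 narrow arrays 2 of the 6 fell. Hmgcs1, which makes the HMG-CoA that enters the pathway, was at 7.12 to 8.38 (median 8.10) in the 9 BM arrays and 7.75 to 9.02 (median 8.44) in the 9 FL arrays. The sources overlapped, and BM ST-HSC b and c were the lowest arrays of all. The average difference was -0.60 ± 0.16 (SE), or 1.52-fold lower in BM, with an adjusted p of 0.0093. It was -0.33 ± 0.17 without the narrow arrays, with an adjusted p of 0.19.

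Pmvk, the kinase that adds the second phosphate to mevalonate, was at 8.35 to 9.34 (median 9.12) in BM arrays and 9.30 to 9.94 (median 9.52) in FL arrays. The ranges met only at BM LT-HSC b, which lay just above FL LT-HSC c. Its difference was -0.56 ± 0.12, with an adjusted p of 0.0026, and -0.38 ± 0.12 without the narrow arrays, with an adjusted p of 0.027. Fdps, which joins isoprenoid units into farnesyl diphosphate, was at 9.82 to 10.73 (median 10.33) in BM and 10.27 to 11.10 (median 10.89) in FL. The lowest FL array was the narrow FL LT-HSC b, and the other 8 FL arrays overlapped BM only between 10.72 and 10.73. Its difference was -0.47 ± 0.10 (adjusted p 0.0019), and -0.41 ± 0.08 without the narrow arrays (adjusted p 0.0020).

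Mvd, which makes isopentenyl diphosphate, was lower by -0.29 ± 0.10 with an adjusted p of 0.046, and lost its call without the narrow arrays (-0.26 ± 0.09, adjusted p 0.060). Leaving out 1 array took its adjusted p to between 0.060 and 0.11 for 12 of the 18 arrays. Mvk and Idi1, a mevalonate kinase and the isomerase of the isoprenoid units, differed by -0.11 ± 0.08 and -0.16 ± 0.13 and did not pass.

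Of the 10 measured genes between farnesyl diphosphate and cholesterol, 4 fell in BM, against 15.9% of all genes. The median difference over the 10 was -0.12. Sqle, the squalene epoxidase that limits the later pathway, was at 8.12 to 8.90 (median 8.65) in BM and 8.46 to 9.27 (median 9.03) in FL. BM LT-HSC c and BM ST-HSC b and c, all narrow, were the lowest 3 arrays. The difference was -0.42 ± 0.12 with an adjusted p of 0.013, and -0.27 ± 0.08 with an adjusted p of 0.018 without the narrow arrays. Hsd17b7, a sterol ketone reductase, was lower by -0.33 ± 0.09 (adjusted p 0.0090), Msmo1, a sterol demethylase, by -0.41 ± 0.13 (0.024) and Fdft1, the squalene synthase, by -0.18 ± 0.06 (0.029). None of these 3 passed without the narrow arrays, with an adjusted p of 0.058 for Hsd17b7, 0.30 for Msmo1 and 0.088 for Fdft1.

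No gene of the last steps of the pathway passed in all 18 arrays. Ebp, the sterol isomerase, Sc5d, the desaturase after it, and Dhcr7, the final reductase, differed by 0.11 ± 0.10, 0.15 ± 0.09 and 0.05 ± 0.11. Without the narrow arrays Ebp and Sc5d rose in BM, by 0.28 ± 0.09 (adjusted p 0.025) and 0.32 ± 0.08 (0.012), while Dhcr7 did not pass. Lss, Nsdhl and Cyp51, which cyclise squalene epoxide and trim the sterol ring, differed by -0.03 ± 0.08, -0.05 ± 0.11 and -0.28 ± 0.13 and did not pass.

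**Figure D2:**
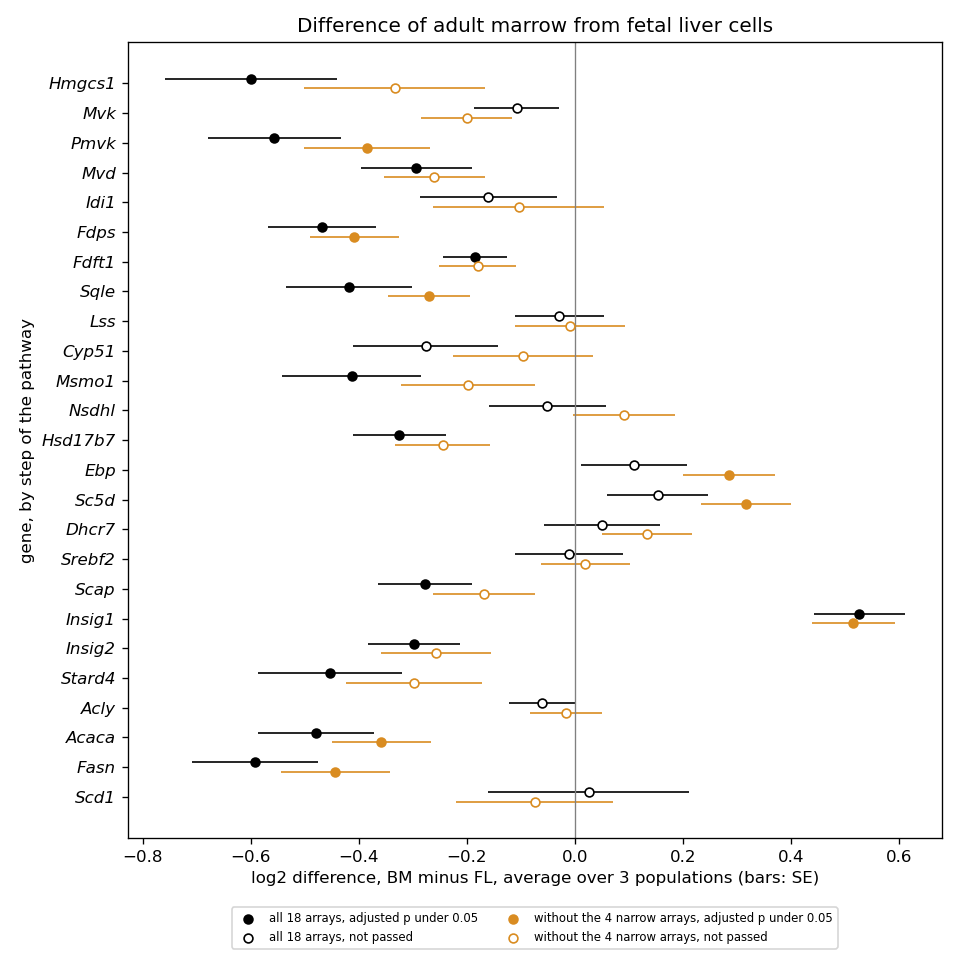
Average log2 difference, BM minus FL, of each of the 25 genes with its SE (bars), in all 18 arrays (black) and without the 4 narrow arrays (orange). Filled points passed at an adjusted p under 0.05; Insig1 stays near 0.5 in both, while Hmgcs1 and Msmo1 move towards 0 without the narrow arrays.

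Both Insig genes changed, in opposite directions. Insig1 was at 8.32 to 8.89 (median 8.58) in the 9 BM arrays and 7.76 to 8.34 (median 8.12) in the 9 FL arrays. The sources overlapped only through BM LT-HSC c, a narrow array, and FL MPP b, and within each population all BM arrays lay above all FL arrays. The difference was 0.53 ± 0.08, or 1.44-fold higher in BM, with a 95% confidence interval of 0.35 to 0.70 and an adjusted p of 0.00016. It was 0.52 ± 0.08 without the narrow arrays. Insig2, the second retention protein, was at 6.74 to 7.39 (median 7.05) in BM and 7.0 to 7.72 (median 7.36) in FL, with the ranges overlapping, and fell by 0.30 ± 0.09 (adjusted p 0.015). Without the narrow arrays its difference was -0.26 ± 0.10 and did not pass (adjusted p 0.088).

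The transcript of the regulator itself did not pass. Srebf2, which encodes the SREBP form that favours sterol genes, was at 10.97 to 11.63 (median 11.30) in BM and 11.07 to 11.74 (median 11.36) in FL, and the ranges overlapped almost fully. Its difference was -0.01 ± 0.10, with a 95% confidence interval of -0.22 to 0.20 and an adjusted p of 0.95. Scap, the escort of SREBP, was lower by -0.28 ± 0.09 (adjusted p 0.025), and Stard4, a cytosolic sterol carrier, by -0.45 ± 0.13 (0.017). Neither passed without the narrow arrays, with an adjusted p of 0.24 for Scap and 0.11 for Stard4.

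Of the 4 measured fatty acid synthesis genes 2 fell, with and without the narrow arrays. Fasn, the fatty acid synthase, was at 10.64 to 11.70 (median 11.43) in BM and 11.49 to 12.15 (median 11.92) in FL. The ranges overlapped through FL ST-HSC a, and within LT-HSC, ST-HSC and MPP each BM array lay below each FL array. The difference was -0.59 ± 0.12, or 1.51-fold lower in BM, with an adjusted p of 0.00096, and -0.44 ± 0.10 without the narrow arrays (adjusted p 0.0045). Acaca, the acetyl-CoA carboxylase that makes its malonyl-CoA, was at 8.66 to 9.42 (median 9.27) in BM and 9.08 to 9.95 (median 9.67) in FL. It was lower by -0.48 ± 0.11 (adjusted p 0.0029), and by -0.36 ± 0.09 without the narrow arrays (0.0097).

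Acly, which supplies cytosolic acetyl-CoA to both chains, was at 12.40 to 12.64 in BM arrays and 12.48 to 12.71 in FL arrays, a difference of -0.06 ± 0.06 that did not pass. Scd1, a desaturase, differed by 0.03 ± 0.19 and did not pass; its arrays spanned 6.46 to 7.96 within FL alone.

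**Figure D3:**
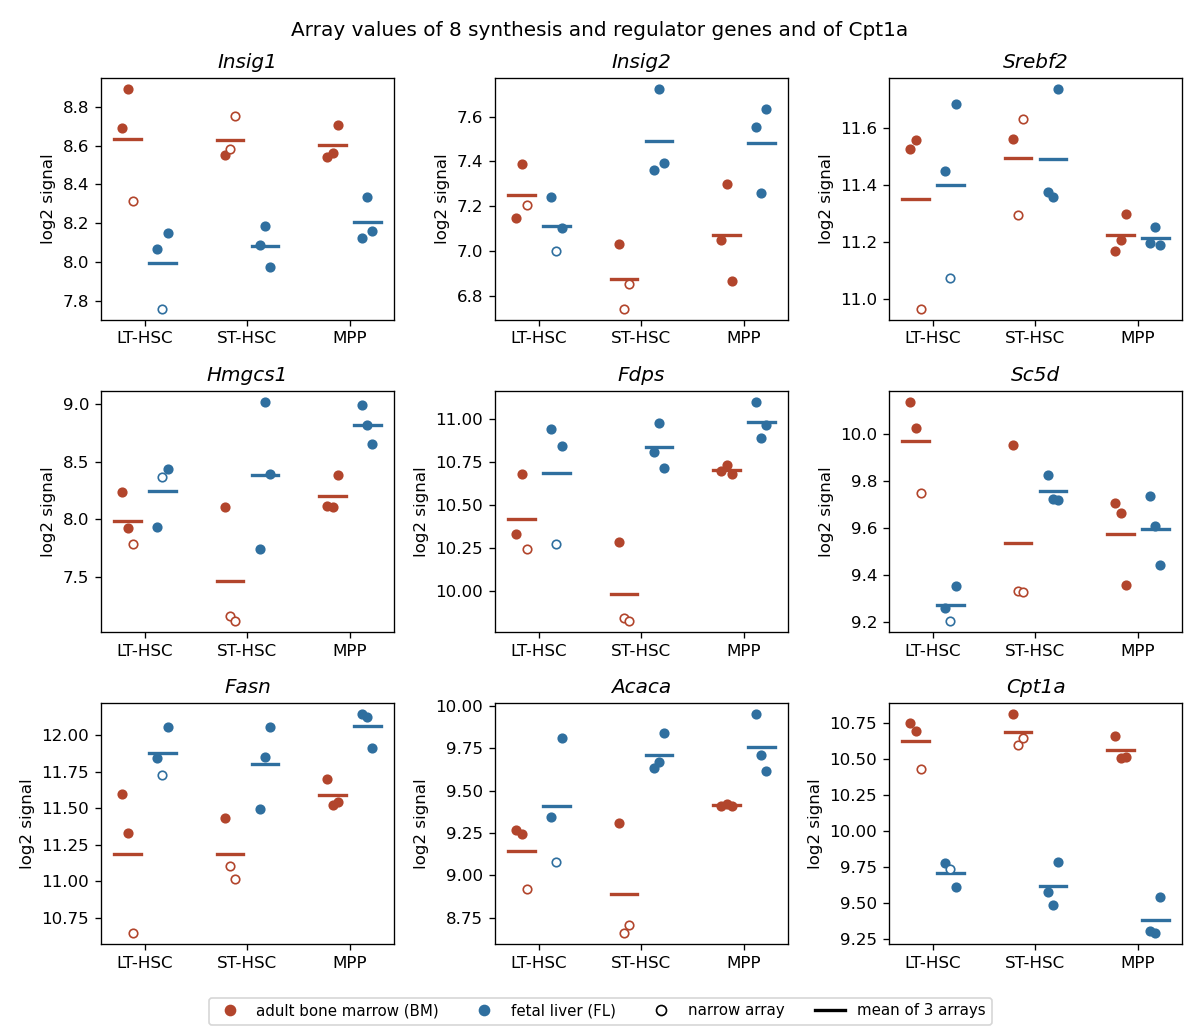
Log2 signal in every array for 8 of the 25 genes and for Cpt1a, a gene of fatty acid oxidation, by population, with BM (red) left of FL (blue), lines at the mean of 3 arrays and open points for narrow arrays. Insig1 and Cpt1a are higher in every BM array than in the FL arrays of the same population, and Fasn is lower.

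The comparison was then made within each population. In LT-HSC 2 members rose in BM, against 4.58% of all genes, and 1 fell, against 3.08%. All 3 calls were lost without the 4 arrays described as sgEzh2, with Sc5d at 0.69 (adjusted p 0.099) and Insig1 at 0.68 (0.071), and no member was called when the 2 LT-HSC groups were fitted alone. Sc5d was at 10.14, 10.02 and 9.75 in BM LT-HSC a, b and c and at 9.26, 9.20 and 9.35 in FL LT-HSC a, b and c, with no overlap. The difference was 0.70 ± 0.16 (adjusted p 0.011), and 0.77 ± 0.14 without the narrow arrays (0.0026). Insig1 was at 8.69, 8.89 and 8.32 in BM LT-HSC and at 8.07, 7.76 and 8.15 in FL LT-HSC, a difference of 0.64 ± 0.15 (adjusted p 0.0095).

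Fasn was at 11.59, 11.33 and 10.64 in BM LT-HSC and at 11.85, 11.73 and 12.06 in FL LT-HSC. The groups did not overlap, and the lowest value was that of the narrow BM LT-HSC c. The difference was -0.69 ± 0.20 (adjusted p 0.044). Its call was lost without any 1 of 14 arrays, and without BM LT-HSC c the difference was -0.42 (adjusted p 0.16). Without FL LT-HSC b Insig1 was at 0.52 (adjusted p 0.052), leaving 1 called member, and without BM LT-HSC a Sc5d was at 0.61 (0.051). Without the 4 narrow arrays Sc5d and Insig1 were higher, against 5.5% of all genes, and Fasn did not pass. The median of the 25 was -0.08 and turned to 0.0050 without BM LT-HSC c and 0.0031 without FL LT-HSC a.

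In ST-HSC 8 members fell in BM, against 12.1% of all genes, and Insig1 rose, against 6.52%. The 8 were Hmgcs1, Pmvk, Mvd, Fdps, Msmo1, Insig2, Acaca and Fasn, with differences between -0.92 (Hmgcs1) and -0.53 (Mvd). Hmgcs1 was at 8.10, 7.17 and 7.12 in BM ST-HSC a, b and c and at 7.75, 9.02 and 8.39 in FL ST-HSC a, b and c; BM ST-HSC a, the array of its group that is not narrow, lay inside the FL range. Fdps was at 10.28, 9.84 and 9.82 in BM ST-HSC and at 10.81, 10.98 and 10.72 in FL ST-HSC. Here all 3 BM arrays lay below the FL arrays, with a difference of -0.85 ± 0.17 (adjusted p 0.0029).

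The ST-HSC counts turned on single arrays, 2 of them narrow (BM ST-HSC b and c) and 1 not (FL ST-HSC b). Without BM ST-HSC b, BM ST-HSC c or FL ST-HSC b the number of called members was 4, 3 and 3, in place of 9. Leaving out each of the 18 arrays in turn gave 3 to 13 called members, against 1462 to 6125 of all 19505 genes. The count over all genes thus moved with single arrays too. Fdps and Acaca kept their calls in each of these fits. With all 4 narrow arrays left out, which keeps 1 BM ST-HSC array, 0 members passed limma's test, against 6.19% of all genes in either direction. At an unadjusted p under 0.05, 5 members passed, or 20% of the 25, against 19.9% of all genes, and the members' median was -0.07 in place of -0.25. In the 18 arrays 17 of 22 S phase genes and 19 of 21 G2M phase genes fell in BM ST-HSC, against 12.1% of all genes. These lists also leaned on the narrow arrays. Mean S phase signal was 10.24, 9.90 and 9.73 in BM ST-HSC a, b and c, and mean G2M signal 9.84, 9.30 and 8.93. Without the narrow arrays the median differences of the 2 lists were -0.35 and -0.43. The part of these lists in the members' differences was not tested.

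In MPP, which held no narrow array, Hsd17b7 was the called member. It was at 7.85, 7.82 and 8.09 in BM MPP and at 8.62, 8.41 and 8.53 in FL MPP, with no overlap. The difference was -0.60 ± 0.15 (adjusted p 0.022), and 3.55% of all genes were higher and 1.92% lower. The call was lost without BM MPP a, BM MPP b, FL MPP a or FL MPP c, with adjusted p between 0.077 and 0.11. The fit without the 4 narrow arrays, in which the SE of Insig1 in MPP was 0.11 in place of 0.15, called Sqle (-0.60 ± 0.11), Hsd17b7 and Fasn (-0.47 ± 0.14) lower, against 4.92% of all genes, and Insig1 higher (0.40 ± 0.11), against 6.03%.

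The separation of arrays gave a wider count in MPP than the test. All 3 BM MPP arrays lay below all 3 FL MPP arrays for 15 of the 25 members, against 19.1% of all genes, and above them for 2, Ebp and Insig1, against 13.8%. In ST-HSC 9 members lay below and 1 above, against 18.8% and 16% of all genes. In LT-HSC 2 lay below and 2 above, against 11% and 8.02%. Hmgcs1 in MPP was at 8.11, 8.11 and 8.38 in BM and at 8.99, 8.81 and 8.66 in FL, a difference of -0.62 ± 0.28 that did not pass (adjusted p 0.27).

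**Figure D4:**
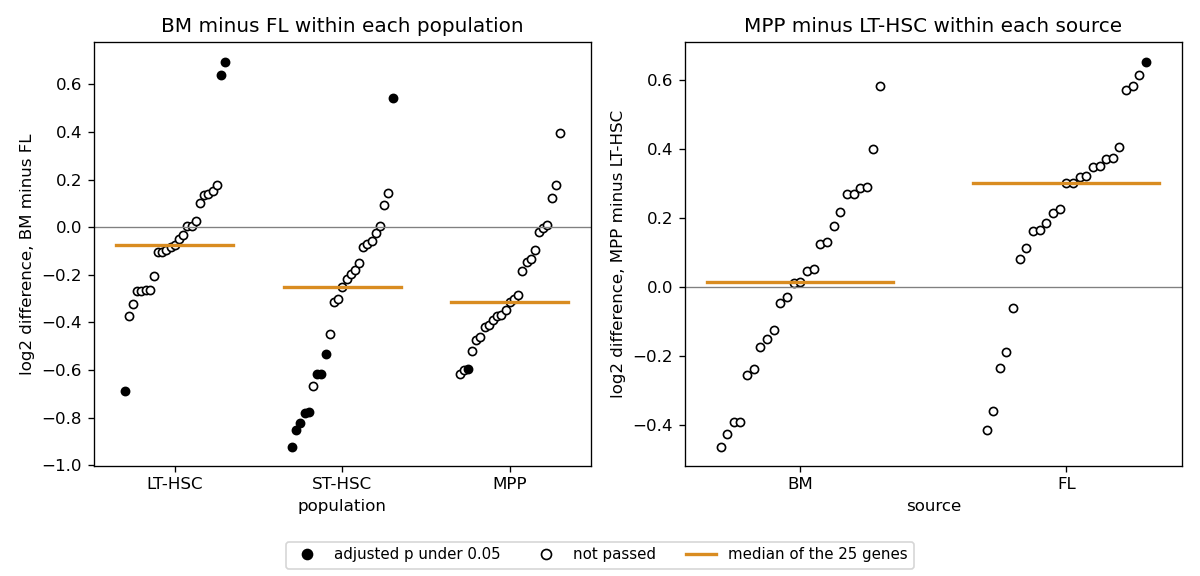
Left, log2 difference BM minus FL of the 25 genes within LT-HSC, ST-HSC and MPP; right, log2 difference MPP minus LT-HSC within BM and FL. Each point is a gene, sorted by value, filled where the adjusted p was under 0.05, and the orange line is the median of the 25, from -0.08 in LT-HSC to -0.31 in MPP on the left and 0.01 in BM and 0.30 in FL on the right. Without BM LT-HSC c the LT-HSC median is 0.0050 and the BM median on the right -0.18, and without FL LT-HSC b the FL median is 0.18.

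The next comparison followed the genes along the differentiation series within a source. Few members passed, and the medians of MPP minus LT-HSC were 0.01 in BM and 0.30 in FL, against 0.01 for all genes in each. Neither median was stable: the BM one turned to -0.18 without BM LT-HSC c, to -0.13 with array weights and to -0.06 with quantile normalization, and the FL one was 0.18 without FL LT-HSC b, both of those arrays being narrow. In BM 0 members passed limma's test, against 4.57% of all genes; at an unadjusted p under 0.05 there were 4, or 16%, against 16.7%. In FL Hsd17b7 rose, at 8.62, 8.41 and 8.53 in MPP and at 8.13, 7.69 and 7.78 in LT-HSC, and 1.84% of all genes rose. The difference was 0.65 ± 0.15 (adjusted p 0.017), and it lost its call without FL LT-HSC b, FL LT-HSC c, FL MPP a or FL MPP c (adjusted p 0.070 to 0.091).

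All 3 MPP arrays lay above all 3 LT-HSC arrays for 12 members in FL, against 15.1% of all genes, and for 2 in BM (Ebp and Acaca), against 12.8%. They lay below for 1 member in FL (Stard4), against 9.68% of all genes, and for 3 in BM (Fdft1, Lss and Sc5d), against 8.4%. Ebp was at 10.33, 10.32 and 10.32 in BM MPP, against 9.98, 9.81 and 9.43 in BM LT-HSC. Fetal liver MPP had 10.16, 10.08 and 10.20, against 9.74, 9.58 and 9.36 in FL LT-HSC. It was higher in every MPP array than in the LT-HSC arrays of its source, by 0.58 ± 0.17 in both, with adjusted p of 0.058 in BM and 0.071 in FL.

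A contrast chosen after the data were seen, MPP minus LT-HSC averaged over both sources, called Ebp (0.58 ± 0.12, adjusted p 0.0041) and Hsd17b7 (0.39 ± 0.11, 0.025) higher, against 5.14% of all genes, and Lss (-0.33 ± 0.10, 0.048) lower, against 3.73%. Without the narrow arrays Ebp stayed higher (0.51 ± 0.10, adjusted p 0.0018), against 5.96% of all genes, and Hsd17b7 and Lss did not pass. Srebf2 (-0.34 ± 0.09, 0.026), Stard4 (-0.59 ± 0.14, 0.011) and Scd1 (-0.55 ± 0.16, 0.037) were then lower, against 6.55%.

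Within a source and without the 4 narrow arrays, 2 members passed in BM, both lower (Sc5d at -0.50 ± 0.13 and Stard4 at -0.79 ± 0.20), against 7.46% of all genes. In FL 3 passed, Hsd17b7 (0.56 ± 0.14) and Ebp (0.59 ± 0.13) higher and Scd1 (-0.85 ± 0.23) lower, against 6.24%.

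Between neighbouring stages, MPP minus ST-HSC in BM gave 2 higher members, Fdps (0.72 ± 0.17, adjusted p 0.019) and Ebp (0.64 ± 0.17, 0.031), against 4.79% of all genes. Both calls were lost without BM ST-HSC b, BM ST-HSC c or any 1 BM MPP array, and without all 4 narrow arrays. In that last fit Fdps was at 0.42 ± 0.17 (adjusted p 0.24) and Ebp at 0.28 ± 0.17 (0.51), and limma called 0 members, against 2.48% of all genes. At an unadjusted p under 0.05 it had 2 members, or 8% of the 25, against 14.4% of all genes. Other lists moved with this step in the 18 arrays, in which 4.79% of all genes rose. Of 22 S phase genes 16 rose in BM MPP relative to BM ST-HSC (median 0.57). So did 17 of 21 G2M phase genes (median 0.93) and 5 of 9 B cell markers. Without the narrow arrays the medians of the S phase and G2M lists were smaller, at 0.38 and 0.51, and that of the B cell markers was 0.78. Their part in the differences of Fdps and Ebp was not tested.

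The same step in FL, and ST-HSC minus LT-HSC in BM and in FL, gave 0 called members by limma, against 2.26%, 1.71% and 0.559% of all genes. At an unadjusted p under 0.05 each of these 3 comparisons had 3 members, or 12% of the 25, against 13.4%, 12.6% and 8.76% of all genes. Without the narrow arrays Hsd17b7 (0.55 ± 0.12, adjusted p 0.013) and Ebp (0.44 ± 0.12, 0.042) were higher in FL MPP than in FL ST-HSC, against 2.37% of all genes.

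Whether the series differed between sources was tested directly. The interaction contrast, MPP minus LT-HSC in BM less the same in FL, called 0 members by limma, against 0.543% of all genes, and the F test of source and population called 0, against 0.82%. At an unadjusted p under 0.05 each had 3 members, or 12%, against 6.85% and 12.4% of all genes. The member with the smallest adjusted p was Sc5d, at 9.71, 9.66 and 9.36 in BM MPP, below its BM LT-HSC arrays, and at 9.73, 9.61 and 9.44 in FL MPP, above its FL LT-HSC arrays. Its interaction was -0.72 ± 0.23 (adjusted p 0.28), and -0.79 ± 0.19 without the narrow arrays (0.047).

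Genes around the synthesis pathway give it a setting. In the list of other sterol and isoprenoid branch genes 3 of 13 measured genes fell in BM, against 15.9% of all genes. The 1 that rose, against 9.26%, was Lpin1, which is not an enzyme of these branches. The median of the list was -0.12. Fntb and Fnta, the subunits of protein farnesyltransferase, fell by 0.75 ± 0.12 and 0.35 ± 0.09, Ggps1, which makes geranylgeranyl diphosphate, fell by 0.25 ± 0.09, and Lpin1, a phosphatidate phosphatase and coregulator, rose by 0.56 ± 0.14; Fntb and Lpin1 passed without the narrow arrays. Of 23 genes for fatty acid elongation, desaturation and activation 4 fell and 2 rose, shares near the 15.9% and 9.26% of all genes, with a median of -0.03. Elovl2, which lengthens polyunsaturated chains, was at 6.61 to 7.01 in BM arrays and 7.50 to 8.25 in FL arrays, with no overlap, and fell by 1.13 ± 0.10 (adjusted p 1e-07). Me1, which supplies NADPH, rose by 0.90 ± 0.11, while Elovl6 and Fads2, an elongase and a desaturase, fell by 0.69 ± 0.14 and 0.49 ± 0.10.

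Of 21 fatty acid oxidation genes 2 rose and 3 fell, shares near the 9.26% and 15.9% of all genes, with a median of -0.13. Without the narrow arrays 3 rose, no gene was called lower and the median was 0.01, so the list had no steady direction. Cpt1a, which admits long-chain fatty acids to mitochondria, was at 10.43 to 10.82 in BM arrays and 9.29 to 9.79 in FL arrays, with no overlap. It rose by 1.06 ± 0.07 (adjusted p 7.2e-09), and by 1.14 without the narrow arrays. Acadl, a dehydrogenase of the cycle, rose by 0.37 ± 0.10, and Hadh and Eci1, further enzymes of the cycle, fell by 0.36 ± 0.11 and 0.30 ± 0.08. Of 19 genes for sterol efflux, storage and uptake 3 rose and 3 fell, against the same 9.26% and 15.9% of all genes, with a median of 0.06. Vldlr, a lipoprotein receptor, rose by 0.90 ± 0.08 and Osbpl1a, an oxysterol-binding protein, by 0.58 ± 0.15, while Cyp27a1, a sterol hydroxylase, fell by 0.56 ± 0.08 and Plin2, a lipid droplet coat protein, by 0.39 ± 0.11.

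For MPP minus LT-HSC 3 of the 23 elongation, desaturation and activation genes, 1 of the 21 oxidation genes and 2 of the 19 efflux, storage and uptake genes passed in BM, against 4.57% of all genes. In FL 1 of the 21 and 1 of the 19 passed, against 3.4%. Without the narrow arrays 1 of the 23 was higher and 6 were lower in BM MPP, against 7.46% of all genes in either direction. In BM Elovl5, another elongase of polyunsaturated chains, rose by 1.32 ± 0.16 (adjusted p 6.8e-05), with Fads3 at -0.72 ± 0.18 and Me1 at -0.68 ± 0.19. Echs1, a hydratase of fatty acid oxidation, was the called gene of its list in both sources, at 0.58 ± 0.13 in BM and 0.56 ± 0.13 in FL. In BM Vldlr was at 0.88 ± 0.14 and Nr1h3, a sterol-sensing receptor, at -0.83 ± 0.13, and in FL Cyp27a1 was at -0.68 ± 0.14. In the same BM comparison 6 of 22 S phase genes rose and 7 of 11 neutrophil granule genes fell, against 4.57% of all genes in either direction. In FL the mean signal of 10 erythroid genes was 8.98, 7.85 and 9.90 in LT-HSC a, b and c. It was 8.08, 7.81 and 7.77 in FL MPP a, b and c. The part of these lists in the members' differences was not tested.

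Lists of cell cycle genes and of other cell types moved with the BM minus FL comparison, and their part in the members' differences was not tested. Of 22 S phase genes 17 fell in BM and of 21 G2M phase genes 16 fell, with medians of -0.45 and -0.46; without the narrow arrays 15 and 14 fell. Of 11 neutrophil granule genes all 11 rose, with a mean list signal of 9.89 to 12.54 in BM arrays and 6.25 to 7.21 in FL arrays. Their summed linear signal was 17160 to 76501 in BM and 1012 to 2259 in FL. Of 11 macrophage markers 7 rose and of 9 B cell markers 7 rose. Summed linear signals of these lists were 1600 to 5059 in BM and 1178 to 2054 in FL for macrophage markers, and 2643 to 10316 in BM and 1617 to 3142 in FL for B cell markers. BM LT-HSC c, a narrow array, had the highest mean of all arrays in each of these 3 lists. Of 10 erythroid genes 2 rose and 2 fell, with sums of 4919 to 11916 in BM and 3103 to 13589 in FL.

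Hepatocyte markers were higher in FL. Of 15 measured 7 fell in BM and 1 rose, Trf, a transferrin. Alb, which encodes albumin, was at 6.50 to 7.17 in BM and 7.77 to 11.79 in FL. Hnf4a, a hepatocyte transcription factor, differed by -0.03 ± 0.10; it and Trf were picked out after their values were seen. The list mean was 6.96 to 7.27 in BM arrays and 7.20 to 9.0 in FL arrays, with FL LT-HSC c the highest, and the summed linear signal was 2686 to 4406 in BM and 3336 to 12113 in FL. Hepatocytes themselves express both pathways. With this mean as a covariate 4 of the 25 members were called, Insig1 higher (0.62 ± 0.12, against 5.24% of all genes) and Pmvk (-0.57 ± 0.18), Scap (-0.39 ± 0.12) and Fasn (-0.57 ± 0.17) lower (against 6.95%). The members' median difference was -0.29 with the covariate and -0.28 without it. The covariate largely follows the source, since the list means of BM and FL arrays barely overlapped. This fit therefore cannot tell hepatocyte RNA apart from source, and nothing about hepatocyte RNA is concluded from the similar medians. The SE of each of the 4 called members was larger with the covariate than without it, so a lost call can reflect lower precision.

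**Figure D5:**
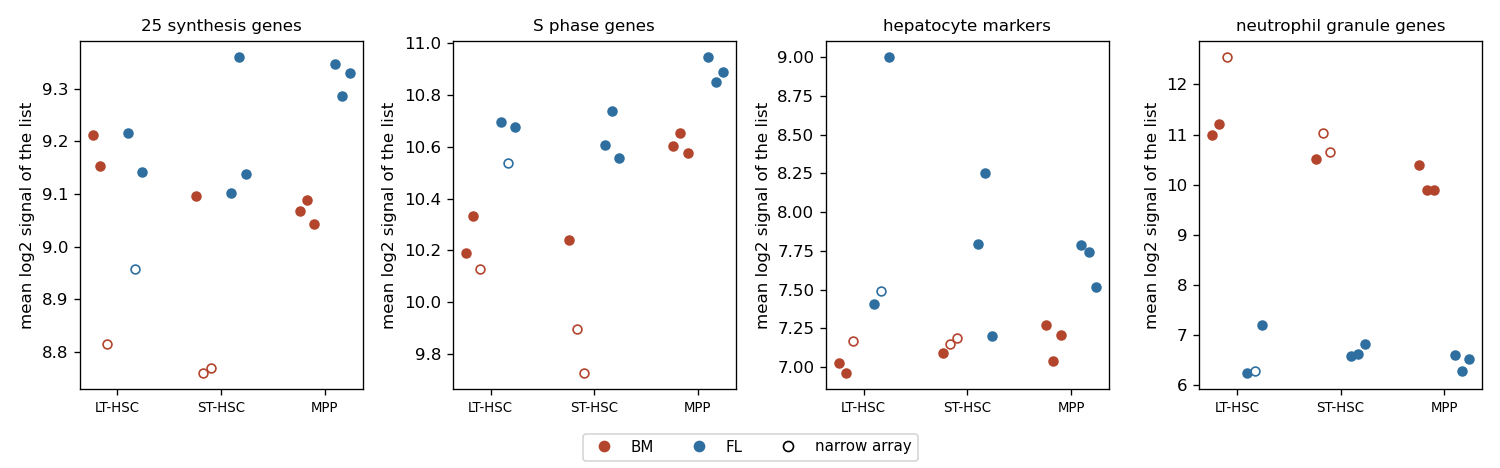
Mean log2 signal of 4 gene lists in every array, by population, with BM (red) left of FL (blue) and open points for narrow arrays; the axes differ between panels. The synthesis genes overlap between sources in LT-HSC, come close in ST-HSC (BM ST-HSC a at 9.0965, FL ST-HSC a at 9.1016) and lie clearly apart in MPP. The other 3 lists do not overlap between sources in any population, but hepatocyte markers also come close in ST-HSC (BM ST-HSC c at 7.186, FL ST-HSC c at 7.198).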

How the data were processed

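Total RNA was labelled from 2 ng with 10 cycles of PCR, per the labels' protocols, and hybridised to 18 arrays. The deposited values are log2 signals, 1 for each probe set, which the authors made with oligo in R, per the submitters' processing notes; how background was corrected and arrays normalized is not given in the sources used here. Signals at the same rank differed between arrays by up to 0.34, and their spread differed as given above, so quantile normalization was tried as an alternative.

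Of 22203 probe sets 19572 carried 1 symbol in the platform annotation, and 2631 carried none and were left out. The probe set with the highest mean was kept for each symbol, which set aside 67 and left 19505 genes, each found in the RefSeq table. The 6 group means were fitted over the 18 arrays by limma (version 3.58.1, functions lmFit and eBayes, under R version 4.3.3), with Benjamini-Hochberg adjustment over all genes, and a gene with an adjusted p under 0.05 is named as called. Errors of differences are SE, with a median of 0.17 for 3 arrays against 3 and 0.10 for the average; precision is limited by the number of arrays. The fit was also run on simulated data, and nothing about these arrays is concluded from that run.

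Members, gene lists and tests were chosen with earlier results of these data known. All members are described; of other lists up to 4 called genes with the largest differences are named. Alternatives changed scaling, filter, probe set, weights, model, covariates and arrays.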

Additional observations from a re-analysis of the deposited data

How the results depend on the processing

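Over 28 alternatives no called difference of a member changed sign: of 840 values, 30 calls in each alternative, 681 stayed past the threshold and 159 did not. Counts of called members changed with the arrays used, with array weights, with quantile normalization and with the hepatocyte covariate. Of the 30 calls, 5 were lost with quantile normalization and 1 with array weights. The number for BM minus FL averaged over populations was 14; it was 8 without the 4 narrow arrays, 6 without the 4 arrays described as sgEzh2 (which keeps 1 FL MPP array, assumed to vary like the others) and 4 with the hepatocyte mean as a covariate. In LT-HSC the 3 called members became 0 without the sgEzh2 arrays, 1 with the covariate and 0 in a fit of the 2 groups alone. In ST-HSC 9 became 0 without the narrow arrays, 4 without the sgEzh2 arrays and 5 with the covariate. In MPP 1 became 12 with array weights, 2 with quantile normalization and 8 with the 2 groups alone. Without the sgEzh2 arrays the MPP comparison rests on 1 FL MPP array, so its count is not given. Except where a share of all genes is given above, these counts have none beside them. A change in a count may therefore be shared with genes outside the list. Insig1, Pmvk and Fasn passed for the average in all 18 arrays and in each of the first 3 alternatives named here.

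For MPP minus LT-HSC in BM, with 0 called, the count was 3 with array weights, 2 without the narrow arrays, 1 with each of median centring, quantile normalization, the dimmest 30% of genes left out, trend and robust estimation and the replicate block, and 3 for the contrast averaged over sources. In FL, with 1 called, it was 2 with each of median centring, array weights, the replicate block and the 2 groups alone, 3 without the narrow arrays, 0 without the sgEzh2 arrays and 3 for the averaged contrast. MPP minus ST-HSC in BM, with 2 called, gave 7 with array weights, 1 with the 2 groups alone, and 0 without the narrow or the sgEzh2 arrays; in FL, with 0, it gave 3 with array weights, 2 without the narrow arrays and 1 with median centring, quantile normalization, the dim genes left out or the 2 groups alone. Array weights called 10 for ST-HSC minus LT-HSC in BM, 5 in the F test and 1 in the interaction contrast, each with 0 in the fit as reported, and 1 was called in the interaction contrast without the narrow arrays (Sc5d). Shares of all genes called in these fits are given only where they appear above, so a shift may be shared with genes outside the list. The cause of these shifts was not tested.

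Leaving out 1 array at a time gave 10 to 14 for the average, 1 to 3 in LT-HSC, 3 to 13 in ST-HSC, 0 to 2 in MPP, 0 to 1 for MPP minus LT-HSC in BM and 0 to 2 in FL, 0 to 5 for MPP minus ST-HSC in BM and 0 to 1 in FL, 0 to 1 for ST-HSC minus LT-HSC in BM, and 0 to 1 in the F test. Of all 19505 genes, the same fits called 4141 to 5943 for the average and 947 to 1704 in LT-HSC. In ST-HSC they called 1462 to 6125 and in MPP 635 to 1569. For MPP minus LT-HSC they called 418 to 1105 in BM and 393 to 1115 in FL. MPP minus ST-HSC had 344 to 3444 in BM and 215 to 862 in FL. ST-HSC minus LT-HSC in BM had 101 to 812, and the F test 83 to 583. Deviations from the group mean were compared between arrays of different groups. Over 45 pairs of arrays with the same letter their correlations were -0.46 to 0.53, with a median of -0.03. Over 90 pairs with different letters they were -0.61 to 0.55, with a median of 0.02. With 3 arrays per group, correlations this wide cannot tell whether arrays of 1 letter share animals or a pool. With the replicate block the average called 14 members, LT-HSC 2, ST-HSC 10 and MPP 1. Scaling moved the median of all genes by less than the SE of a typical comparison.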
